A study of Mus musculus with 9 samples.

Results

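The G1 cyclins, their kinases and 2 regulators that act with them were followed in mouse embryonic fibroblasts (MEFs). The set was chosen by gene name. It comprised the D-type cyclins *Ccnd1*, *Ccnd2* and *Ccnd3*, the E-type cyclins *Ccne1* and *Ccne2*, the kinase genes *Cdk4*, *Cdk6* and *Cdk2*, the retinoblastoma gene *Rb1*, and the phosphatase gene *Cdc25a*. All 10 genes were in the deposited table of 15184 genes, so none was lost to the filter on low values that the authors applied.

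Cells leave G1 when D-type cyclins, made in response to growth factors, bind CDK4 or CDK6 and these kinases phosphorylate RB1. Hypophosphorylated RB1 holds back the E2F transcription factors, which switch on genes of DNA replication and also the E-type cyclins. Cyclin E then binds CDK2, which phosphorylates RB1 further, and CDC25A removes inhibitory phosphates from CDK2. Fibroblasts express all 3 D-type cyclins, and CDK4 and CDK6 can stand in for each other in many cell types.

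RNA-Seq was performed on 9 libraries of polyA+ RNA. The cells were WT MEFs, whose strain is not stated, from embryos of a single age that the methods give in days. They received lentiMPHv2 and lentiSAMv2, lentiviral vectors of the synergistic activator mediator (SAM) system, in which an inactive Cas9 brings transcriptional activators to a promoter. Transduced cells were selected with blasticidin and hygromycin. Their guides were directed at *Hnrnpk*, the gene of an RNA-binding protein, in 3 libraries labelled SAM1 and 3 labelled SAM2, which together form the genotype Hnrnpk_SAM, and the 3 control libraries are labelled Empty vector, while the methods describe lentiSAMv2 with a nontargeting guide as the control. The labels do not say which guide SAM1 or SAM2 carried, nor whether libraries of one label came from separate cultures, so the p-values measure the spread between libraries, which may be technical.

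The values are normalized counts, that is, reads per gene divided by the DESeq2 size factor of the library, and reads recovered from them came to between 41759636 and 49026626 per library on the listed genes. *Hnrnpk* itself averaged 25773 ± 621 normalized counts (SD, n = 3) in Empty, 23922 ± 264 in SAM1 and 26563 ± 321 in SAM2. Its log2 fold change was −0.11 in SAM1 (adjusted p = 0.00252) and 0.044 in SAM2 (adjusted p = 0.159). By this test its level fell slightly in SAM1 and did not rise in SAM2, against what the genotype label would have it. The study reports higher *Hnrnpk* RNA by qRT-PCR and higher protein by Western blot in its SAM MEFs. Its methods print the same sequence for the nontargeting guide and for a guide directed at *Hnrnpk*. SAM1 and SAM2 serve below as names of the labels, with every direction drawn from libraries labelled so. All 12 fibroblast markers examined were listed, at 1178741 to 1281614 summed normalized counts in Empty, 915430 to 977901 in SAM1 and 1285750 to 1327804 in SAM2, although *Lum* averaged only 11.6 to 48.5. *Col5a1*, *Thy1*, *Pdgfra*, *Dcn*, *Lum* and *Postn* averaged lower in both lines than in Empty, and *Pdgfrb* alone of the 12 averaged higher in both. *Dcn* averaged 11815 in Empty, 2713 in SAM1 and 2538 in SAM2, and *Pdgfrb* 6569, 12577 and 9513. Of other cell types, the defining markers *Epcam*, *Ptprc*, *Adgre1*, *Myod1* and *Myog* were not listed, as for 2 listed of 6 epithelial markers (summed 42.1 to 113), 3 of 6 leukocyte markers (1409.7 to 2469) and 1 of 4 muscle markers (44.4 to 245). Endothelial markers, all 5 listed, summed to 428 to 468 in Empty, 4922 to 5343 in SAM1 and 907 to 977 in SAM2. *Kdr* made up most of the sum in SAM1 (4693). *Vwf* averaged 117 in Empty, 340 in SAM1 and 270 in SAM2, and *Tek* 35.6, 29.0 and 67.1. *Pecam1* stayed between 12 and 29.5 and *Cdh5* between 51.2 and 77.6. The part of these markers in the results was not tested.

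In the libraries labelled SAM, *Cdk6* fell to 0.202 (SAM1) and 0.359 (SAM2) of its control mean, *Ccnd1* fell, and *Ccnd3*, both E-type cyclins, *Cdk2* and *Rb1* rose. *Cdk4*, the most abundant of the 10 genes per length, did not pass the test in any comparison with all 9 libraries, the scaling by size factors and no replicate block, though it passed in each line under quantile normalization and in SAM1 when single libraries were left out. Across both lines as 1 group, 5 genes rose (*Ccnd3*, *Ccne1*, *Ccne2*, *Cdk2* and *Rb1*), 2 fell (*Ccnd1* and *Cdk6*), and *Ccnd2*, *Cdk4* and *Cdc25a* did not pass an adjusted p of 0.05. That threshold was passed by 53.9% of all genes in this comparison (26.8% higher and 27% lower), so the 7 of 10 stand against a background in which most genes of the table were called. The median log2 fold change of the 10 genes was 0.14, against 0.0087 over all genes, and their median absolute change was 0.29, against 0.33 over all genes.

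Taken line by line, 6 genes rose and 3 fell in SAM1, where 74.3% of all genes were called (37.3% higher and 36.9% lower), and 6 rose and 2 fell in SAM2, where 70.5% were called (35.2% higher and 35.3% lower). Between the lines, 5 of the 10 genes were higher in SAM2 and 4 were lower, beside 60.3% of all genes called (31.1% higher and 29.2% lower). The count over both lines rested in part on 1 control library. Without Empty replicate 1, 4 of the 10 genes were called, and *Ccnd1*, *Ccne1* and *Cdk2* were not. Calls over the whole table moved too. They were 8179 of 15184 genes with all libraries and 6761 to 8133 with any 1 library left out.

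**Figure D1:**
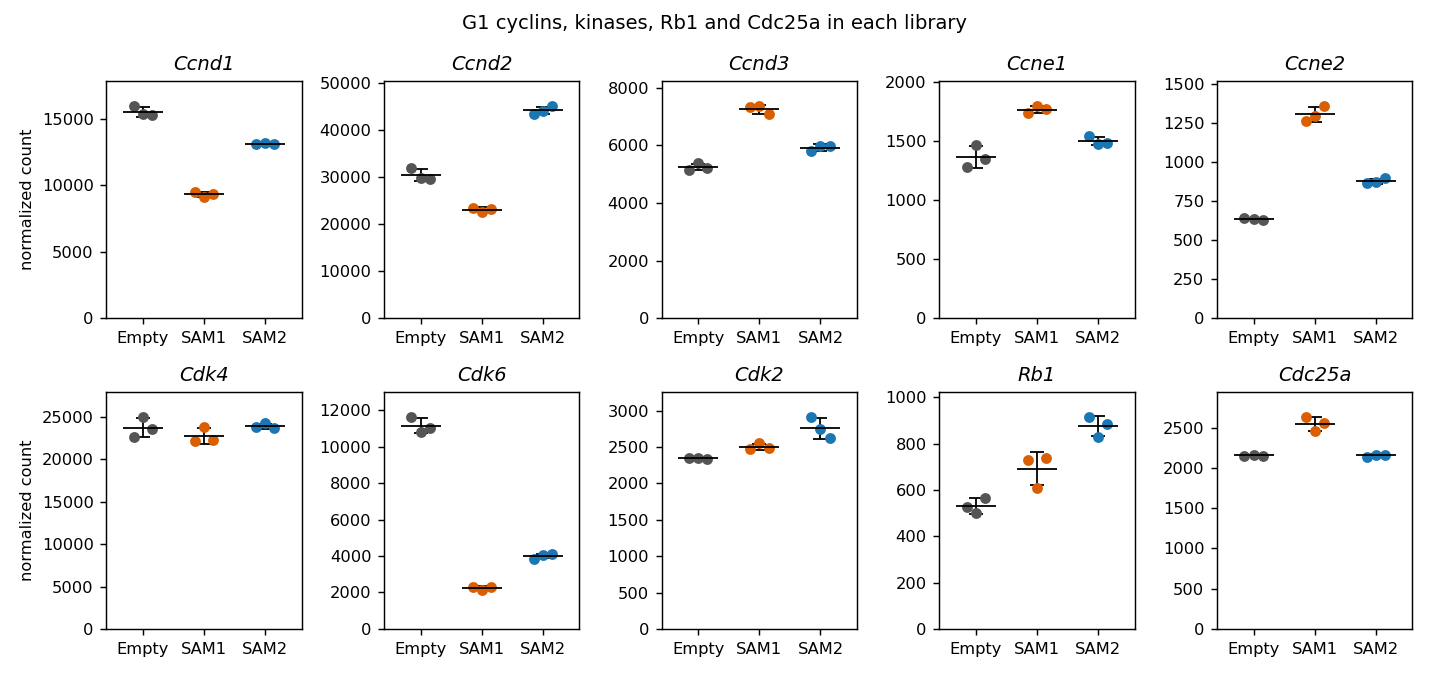
Normalized counts (y axis, from 0) of the 10 genes in each of the 9 libraries, by label (x axis). Points are libraries, and the horizontal line and bar are the mean and SD of 3 libraries; *Cdk6* stands at 10789.8 to 11614 in Empty and at 2143 to 4100.2 in the SAM libraries, while the *Cdk4* points of the 3 groups overlap.

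The D-type cyclins did not move together. *Ccnd1*, the D-type cyclin most closely tied to mitogen signaling in fibroblasts (GRCm39 chr7:144483668-144493662, minus strand), had normalized counts of 15943, 15394 and 15273 in Empty. It had 9492, 9137 and 9336 in SAM1 and 13149.8, 13163 and 13137 in SAM2. All SAM libraries lay below all controls, and SAM1 lay lowest. The log2 fold change was −0.74 in SAM1 (SE 0.027, adjusted p = 3.41e-11) and −0.24 in SAM2 (adjusted p = 3.25e-06, but −0.14 under quantile normalization), and across both lines −0.49 (SE 0.14, adjusted p = 0.0168). Because 3 libraries a line were fitted as 1 group there, the difference between the lines is part of that SE. The call across both lines was lost without Empty replicate 1 (adjusted p = 0.0588) and without Empty replicate 2 (adjusted p = 0.0503). In bulk RNA, fewer cells with a transcript and less of it per cell cannot be told apart, here and for each gene that follows.

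*Ccnd2*, which is induced through other pathways than *Ccnd1* in many cells (chr6:127102125-127129156, minus strand), went opposite ways in the lines. Its normalized counts were 31803, 29686 and 29488 in Empty, 23463, 22497 and 23203 in SAM1, and 43389.6, 44052 and 44979.9 in SAM2. No library of one label overlapped another label. It fell in SAM1 (log2 fold change −0.39, SE 0.033, adjusted p = 1.38e-07, but −0.17 under quantile normalization) and rose in SAM2 (0.54, SE 0.033, adjusted p = 7.28e-09). SAM2 exceeded SAM1 by 0.94 on the log2 scale (adjusted p = 8.33e-11), the largest difference of the 10 genes in that contrast. As 1 group the lines gave 0.074 with a 95% confidence interval from −0.53 to 0.68 (adjusted p = 0.832), a mean of changes in opposite directions, and its sign turned when any 1 library of SAM2 was left out.

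*Ccnd3*, which encodes the remaining D-type cyclin (chr17:47815767-47910624, plus strand), rose in both lines. Normalized counts were 5141, 5369 and 5227 in Empty, 7328, 7347 and 7076 in SAM1, and 5795, 5985 and 5979 in SAM2. Its log2 fold change reached 0.47 in SAM1 (adjusted p = 8.67e-09), 0.17 in SAM2 (adjusted p = 0.000144) and 0.32 (adjusted p = 0.0124) across both. The annotation holds a pseudogene of it, *Ccnd3-ps*, and reads shared with it could have been divided by the counting.

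Within a library, the balance among the D-type cyclins therefore shifted away from *Ccnd1*. The mean log2 ratio of *Ccnd2* to *Ccnd1* was 0.96 in Empty, 1.31 in SAM1 and 1.75 in SAM2. It was 0.56 higher over the 6 SAM libraries than over the 3 controls (two-sided exact permutation test over 84 splits, p = 0.0238, adjusted over 4 ratios 0.0238). The ratio of *Ccnd3* to *Ccnd1* was −1.57, −0.36 and −1.15 in the same order, a rise of 0.81 (exact permutation p = 0.0238, adjusted 0.0238). Both ratios were higher in 6 of 6 SAM libraries than in every control library. The second ratio lost its call without Empty replicate 1 (exact permutation, adjusted p = 0.107), Empty replicate 3 or any 1 library of SAM1 (adjusted p = 0.0714 each).

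Per kilobase of the canonical transcript, the 3 genes summed to 11483 ± 259 normalized counts in Empty, 9691 ± 129 in SAM1 and 13371 ± 171 in SAM2 (SD, n = 3). *Ccnd1* made up 35.6% ± 0.076 of this sum in Empty, 25.3% ± 0.24 in SAM1 and 25.9% ± 0.34 in SAM2. *Ccnd3* made up 22.6% ± 0.89, 37.1% ± 0.77 and 21.9% ± 0.19, and *Ccnd2* 41.7% ± 0.85, 37.6% ± 0.53 and 52.2% ± 0.32. *Ccnd1* thus held a smaller share in both lines, with the larger share taken by *Ccnd3* in SAM1 and by *Ccnd2* in SAM2. The level of a share depends on the length used, and so does the direction for *Ccnd2* in SAM1. With the union of all annotated exons as length, the share of *Ccnd3* was 8.07% in Empty, 15.1% in SAM1 and 7.92% in SAM2. The share of *Ccnd2* was then 45.8% in Empty, 47.3% in SAM1 and 58.1% in SAM2, so its fall in SAM1 did not hold.

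**Figure D2:**
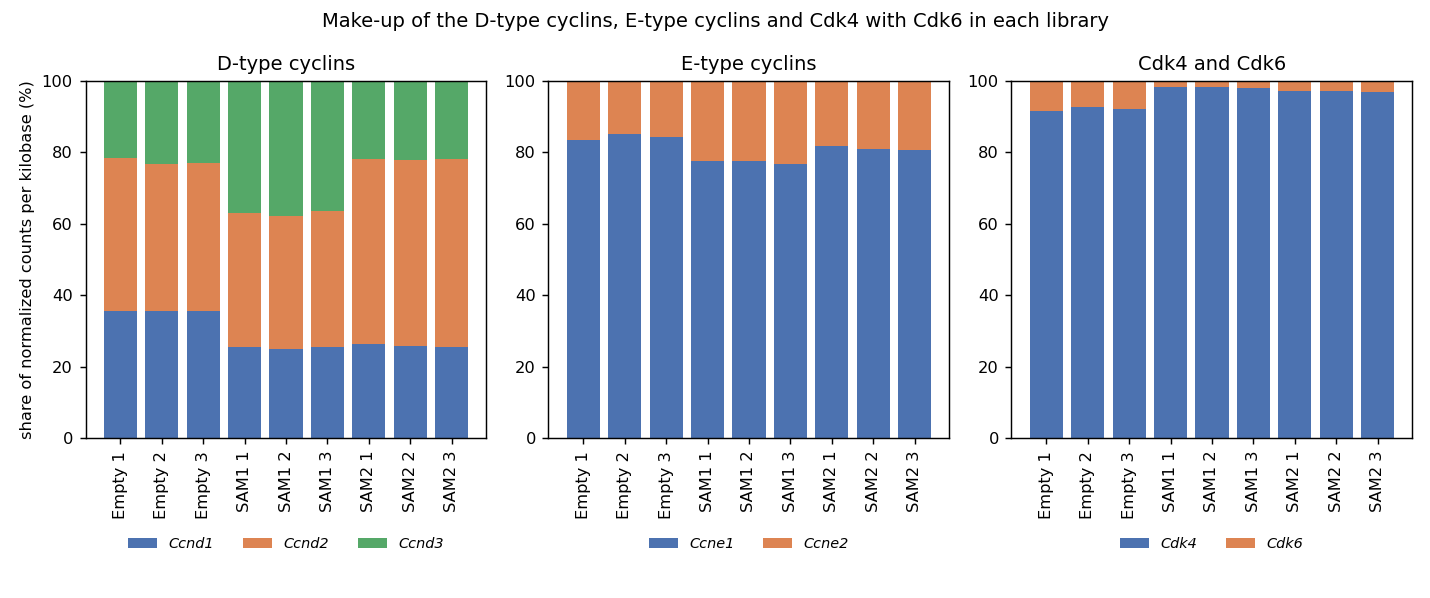
Share of each gene (y axis, percent of the sum of normalized counts per kilobase of canonical transcript) among the D-type cyclins, the E-type cyclins and the pair *Cdk4* and *Cdk6*, in each library (x axis). *Ccnd1* covers 35.6% of its bar on average in Empty and 25.3% and 25.9% in SAM1 and SAM2, and *Cdk6* 7.74%, 1.73% and 2.90%.

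Of the kinases that bind D-type cyclins, *Cdk6* (chr5:3391485-3581008, plus strand) showed the largest change of the 10 genes in each comparison with Empty. Normalized counts were 11614, 10789.8 and 11033 in Empty, 2274, 2143 and 2325 in SAM1, and 3858, 4051 and 4100.2 in SAM2. Every SAM library lay below every control, and the lines did not overlap. Group means were 11146 ± 424, 2247 ± 94.1 and 4003 ± 128 (SD, n = 3), so the SAM1 mean was 0.202 and the SAM2 mean 0.359 of the Empty mean. On the log2 scale the change was −2.31 in SAM1 (SE 0.040, adjusted p = 2.7e-14), −1.48 in SAM2 (SE 0.040, adjusted p = 3.06e-12) and −1.89 (SE 0.24, adjusted p = 0.000128) across both. In that last comparison 163 of the 15184 genes fell further. No alternative in the processing ended this call in any of the comparisons, and its log2 fold change across both lines stayed between −1.98 and −1.80.

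*Cdk4* (chr10:126895180-126903789, plus strand) showed overlapping groups. Normalized counts were 22687, 24989 and 23613 in Empty, 22213, 23847 and 22253 in SAM1, and 23792, 24259 and 23731 in SAM2. The log2 fold change was −0.061 in SAM1 (95% confidence interval −0.14 to 0.021, adjusted p = 0.16) and 0.011 in SAM2 (−0.071 to 0.093, adjusted p = 0.81). Its sign depends on the scaling, since quantile normalization gave 0.13 in SAM1 (adjusted p = 0.00537) and 0.17 in SAM2 (adjusted p = 0.00134). Its call also rested on single libraries, since in SAM1 it passed without Empty replicate 1 (log2 −0.094, adjusted p = 0.0344) and without SAM1 replicate 2 (log2 −0.095, adjusted p = 0.0274), and with the replicate number as a block (adjusted p = 0.0409). The opposite strand of the same stretch holds parts of *Tspan31* and *Marchf9*, which had log2 fold changes of −0.71 and −2.32 in SAM1 and −0.19 and −0.71 in SAM2. The kit was directional, but whether reads were counted by strand is not stated. Reads from exon bases that *Cdk4* may share with these genes may therefore not have been told apart. The same limit holds for the other members whose spans overlap listed genes on the opposite strand. In Empty these averaged 2607 normalized counts (*Ints8*, at *Ccne2*), 3073 (*Bysl*, at *Ccnd3*), 898 (*1600014C10Rik*, at *Ccne1*), 734 (*LTO1*, at *Ccnd1*), 37.1 (*Pmel*, at *Cdk2*) and 11.4 (*9330179D12Rik*, at *Ccnd2*). *Rb1* is treated below.

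The within-library log2 ratio of *Cdk6* to *Cdk4* was −1.09 ± 0.12 in Empty, −3.34 ± 0.12 in SAM1 and −2.58 ± 0.046 in SAM2 (SD, n = 3). It was lower by 1.87 over the SAM libraries, written −1.87 as a difference (exact permutation p = 0.0119, the smallest that 84 splits allow, adjusted 0.0238), and lower in 6 of 6 SAM libraries than in every control. A ratio within a library does not depend on the scaling by a size factor. Per kilobase, *Cdk6* made up 7.74% ± 0.61 of the sum of both kinases in Empty, 1.73% ± 0.14 in SAM1 and 2.90% ± 0.089 in SAM2.

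Both E-type cyclins rose in both lines, *Ccne2* by more than *Ccne1*. *Ccne2* (chr4:11190303-11204947, plus strand) had normalized counts of 639, 636 and 631 in Empty, 1262, 1291 and 1354 in SAM1, and 861, 871 and 894 in SAM2. The 3 labels did not overlap, and SAM1 stood highest. The SAM1 mean was 2.05 times and the SAM2 mean 1.38 times the Empty mean. This was a log2 fold change of 1.03 in SAM1 (SE 0.042, adjusted p = 9.2e-11), 0.46 in SAM2 (adjusted p = 4.13e-07) and 0.75 (SE 0.17, adjusted p = 0.00414) across both.

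*Ccne1* (chr7:37797404-37808264, minus strand) had 1285, 1469.5 and 1346 normalized counts in Empty, 1739.8, 1795 and 1772 in SAM1, and 1542, 1481 and 1486 in SAM2. SAM2 lay just above the highest control, Empty replicate 2. The log2 fold change was 0.37 in SAM1 (adjusted p = 8.17e-06), 0.14 in SAM2 (adjusted p = 0.0175) and 0.26 (adjusted p = 0.0236) across both lines. The rise in SAM2 was lost in 6 of 19 alternatives, among them the removal of Empty replicate 1 (adjusted p = 0.0756), Empty replicate 3 (adjusted p = 0.0569) or SAM2 replicate 1 (adjusted p = 0.0715) and quantile normalization (adjusted p = 0.128). Across both lines the rise was lost without Empty replicate 1 (adjusted p = 0.102), without Empty replicate 3 (adjusted p = 0.0776) and under quantile normalization (adjusted p = 0.0662).

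The log2 ratio of *Ccne2* to *Ccne1* was −1.10 in Empty, −0.44 in SAM1 and −0.78 in SAM2. It was 0.49 higher over the SAM libraries (exact permutation p = 0.0238, adjusted 0.0238), and higher in 6 of 6 of them than in every control. Per kilobase, the E-type cyclins summed to 780 ± 45.1 in Empty, 1101 ± 18.7 in SAM1 and 891 ± 14.3 in SAM2 (SD, n = 3). *Ccne2* supplied 15.7% of that sum in Empty, 22.7% in SAM1 and 18.9% in SAM2.

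*Cdk2*, the kinase of the E-type cyclins (chr10:128533796-128540963, minus strand), had 2347, 2355 and 2341 normalized counts in Empty, 2473, 2549.7 and 2479.5 in SAM1, and 2909.7, 2741 and 2618 in SAM2. The groups did not overlap, but the steps were small beside those of *Ccne2*. They came to log2 fold changes of 0.091 in SAM1 (adjusted p = 0.0471), 0.23 in SAM2 (adjusted p = 0.000126) and 0.16 (adjusted p = 0.0339) across both lines. The SAM1 value rose to 0.15 under upper-quartile scaling. Its call was lost in 9 of 19 alternatives, 7 of which left out 1 library, with adjusted p from 0.0652 to 0.114 in those 7. Removing any control library, SAM2 replicate 2 or SAM2 replicate 3 ended the call across both lines, with adjusted p from 0.052 to 0.0942.

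*Cdc25a*, whose product activates CDK2 (chr9:109704583-109723540, plus strand), rose in SAM1 only by this test. It had 2149, 2163 and 2148 normalized counts in Empty, 2629, 2455 and 2557 in SAM1, and 2136, 2161 and 2163 in SAM2. SAM2 overlapped Empty, and SAM1 stood above both. The log2 fold change was 0.24 in SAM1 (SE 0.033, adjusted p = 2.02e-05). In SAM2 it was −2.86e-05, with a 95% confidence interval from −0.072 to 0.072. SAM2 minus SAM1 was itself past the threshold (log2 −0.24, adjusted p = 3.69e-05).

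*Rb1*, which restrains E2F and is the best known substrate of the kinases above (chr14:73421113-73563507, minus strand), rose in both lines from a low level. Normalized counts were 528, 499 and 564 in Empty, 729, 608 and 735 in SAM1, and 914, 826 and 886 in SAM2. The groups did not overlap, and SAM1 replicate 2 came nearest to the controls. Log2 fold changes were 0.38 in SAM1 (SE 0.075, adjusted p = 0.000484), 0.72 in SAM2 (adjusted p = 1.48e-06) and 0.55 (adjusted p = 0.00414) across both.

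**Figure D3:**
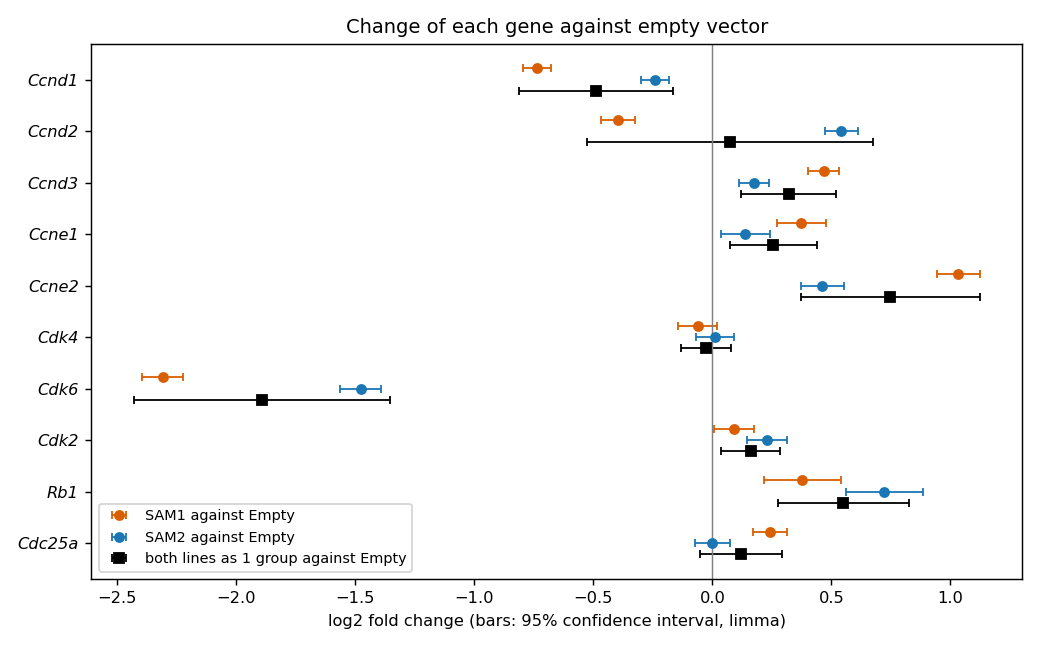
Log2 fold change against Empty (x axis) of each gene (y axis) in SAM1, in SAM2 and in both lines as 1 group, with 95% confidence intervals from limma. *Cdk6* lies farthest from 0, at −2.31 and −1.48, *Ccnd2* lies on opposite sides of 0 in the lines, and the intervals of both lines as 1 group are wider because they include the difference between the lines.

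Between the lines, *Cdk4* alone among the 10 genes did not pass the test (log2 0.072, SAM2 minus SAM1, 95% confidence interval −0.0097 to 0.15, adjusted p = 0.116), and it passed without SAM1 replicate 2 (log2 0.11, adjusted p = 0.0208) and with the replicate block (adjusted p = 0.0223). *Ccnd1* (0.50), *Ccnd2* (0.94), *Cdk6* (0.83), *Rb1* (0.35) and *Cdk2* (0.14) were higher in SAM2. The *Cdk2* difference was lost in 4 of 19 alternatives, namely quantile normalization (0.079, adjusted p = 0.11), upper-quartile scaling (0.085, adjusted p = 0.0752), and edgeR (0.097, adjusted p = 0.0535) and DESeq2 (0.10, adjusted p = 0.0821) on the reads of 8 libraries. *Ccnd3* (−0.29), *Ccne1* (−0.23), *Ccne2* (−0.57) and *Cdc25a* (−0.24) were lower there. For *Ccnd1*, *Cdk6*, *Ccnd3*, *Ccne1* and *Ccne2*, the mean of SAM2 lay between the means of Empty and SAM1, whereas *Rb1* and *Cdk2* were farther from Empty in SAM2.

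In normalized counts per kilobase of canonical transcript, *Cdk4* had the highest level under every label (11419 ± 557 in Empty, 10942 ± 448 in SAM1 and 11498 ± 139 in SAM2, SD, n = 3). In Empty it was followed by *Ccnd2* (4791 ± 203), *Ccnd1* (4093 ± 94.0), *Ccnd3* (2599 ± 57.1), *Cdk2* (1007 ± 3.00), *Cdk6* (956 ± 36.3), *Ccne1* (658 ± 45.3), *Cdc25a* (504 ± 1.89), *Ccne2* (122 ± 0.82) and *Rb1* (106 ± 6.53). No pair of neighbors in this order overlapped between libraries. In SAM1, *Ccnd2* (3642 ± 79.0) and *Ccnd3* (3593 ± 74.8) overlapped, and *Cdk6* (193 ± 8.07) stood below *Ccne2* (250.1 ± 8.96). In SAM2, *Cdk6* (343 ± 11) stood below *Cdc25a* (504 ± 3.5), and *Rb1* (175 ± 8.94) and *Ccne2* (168 ± 3.17) overlapped. With the union of exons as length, *Cdk6* took the 4th place in Empty instead of the 6th, *Ccnd1* and *Ccnd2* exchanged places in Empty at close levels (3248 and 3223), and some other neighbors changed places.

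The promoters of the 10 genes were searched for the letters TTTCCCGC, TTTCGCGC, TTTGCCGC and TTTGGCGC, which are common forms of the E2F site, on both strands from 250 bases before to 50 bases after the start of the canonical transcript (GRCm39, GENCODE). They were present in 4 of 10, and in 533 of 14790 promoters of listed genes (3.60%). The matches are shown so that the letters can be set beside the values of their genes, with 10 bases on either side and the matched letters in capitals, each read 5′ to 3′ on the strand of its gene.
*Ccnd3*, chr17:47904128-47904155, plus strand, 226 bases before the start: aggaataactTTTGGCGCctagttcttt
*Cdk2*, chr10:128541043-128541070, minus strand, 97 bases before the start, letters on the other strand: accaggaactGCGGGAAAgttgtgcagc
*Rb1*, chr14:73563704-73563731, minus strand, 214 bases before the start: caaaagctacTTTCCCGCtaagatctgt
*Cdc25a*, chr9:109704570-109704597, plus strand, 3 bases before the start: gtgaattccgTTTGGCGCcaactaggaa
In the windows of *Ccnd1*, *Ccnd2*, *Ccne1*, *Ccne2*, *Cdk4* and *Cdk6* these letters were not found, so genes that rose in both lines stood on either side (*Ccne1* and *Ccne2* without a match). The absence says nothing about other forms of the site or about positions outside the window. *Ccnd3* and *Cdc25a* share the same 8 letters, at different distances from the start.

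The 10 genes lie on 8 chromosomes, and the listed genes around them (up to 20 on each side) gave each a local reference. *Cdk6* stood apart from its neighborhood, in which the median log2 fold change of 20 genes was −0.0015 in SAM1 and 0.024 in SAM2. *Ccne2* likewise rose where its 40 neighbors had medians of −0.19 in SAM1 and −0.19 in SAM2, and *Ccne1* rose beside neighbors at −0.28 and −0.15.

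*Rb1* did not stand apart in this way. Its 40 neighbors had medians of 0.82 in SAM1 and 0.81 in SAM2, higher than *Rb1* itself, and across both lines 33 of 40 rose and 1 fell. The other genes among the 513 listed on chromosome 14 had a median of 0.55 across both lines, where *Rb1* had 0.55. Relative to its neighbors *Rb1* was at −0.31 across both lines. The same subtraction left *Ccnd1* at −0.18 instead of −0.49, *Ccnd3* at 0.15 instead of 0.32 and *Ccne1* at 0.47 instead of 0.26. *Rcbtb2* and *Lpar6*, which overlap the span of *Rb1* on the opposite strand, had 0.71 and 0.77 in SAM1 and 0.83 and 0.93 in SAM2. Only reads from exon bases shared with *Rb1* could be confused without counting by strand, and shared exon bases were not examined. *Ccnd1* in SAM2 (−0.24) was near its 22 neighbors (−0.31) and the other genes among the 1085 listed on chromosome 7 (−0.24). In SAM1 (−0.74) it lay below its neighbors (−0.32). *Ccnd3* in SAM2 (0.17) was likewise near its neighbors (0.18). The part of chromosomal position in these changes was not tested.

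**Figure D4:**
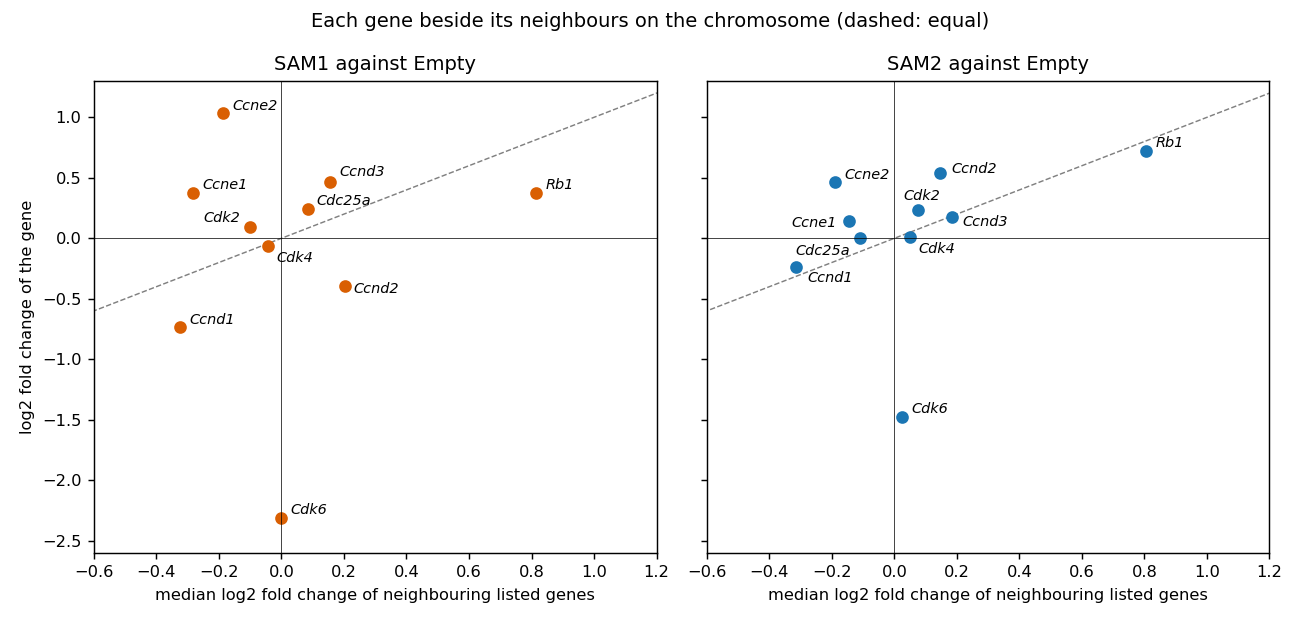
Log2 fold change of each gene (y axis) against the median log2 fold change of the listed genes around it (x axis) in SAM1 (left) and SAM2 (right); the dashed line marks equal values. *Cdk6* lies far below the line with neighbors near 0, while *Rb1* lies at the right, with neighbors at 0.82 and 0.81.

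Partner genes of the G1 kinases were taken from 5 lists, all of whose genes were in the table. Of the CDK inhibitors, 4 of 7 fell and 1 rose across both lines, beside 27% of all genes lower (median log2 fold change −0.29, against 0.0087 over all genes). *Cdkn2b*, the inhibitor p15 of CDK4 and CDK6, fell by 0.75 on the log2 scale (adjusted p = 1.4e-06), from 3762 ± 243 normalized counts in Empty to 2253 ± 69.2 in SAM1 and 2229 ± 66.9 in SAM2. *Cdkn2a*, the locus of p16 and p19ARF, fell from 25567 ± 1495 to 19048 ± 1123 and 15296 ± 454 (log2 −0.58, adjusted p = 0.00102). *Cdkn2d*, the inhibitor p19INK4d, rose from 349 ± 28.6 to 682 ± 59.5 and 643 ± 21.5 (log2 0.92, adjusted p = 8.22e-06).

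Of the pocket proteins related to RB1 and the E2F factors with their DP partners, 5 of 12 rose and 3 fell (median 0.14), beside 26.8% of all genes higher and 27% lower. Without Empty replicate 2, 4 rose and 1 fell. Leaving out any 1 library also moved the calls over the whole table, from 8179 of 15184 genes to between 6761 and 8133. *E2f8* (log2 1.28, adjusted p = 0.000264) and *E2f7* (0.82, adjusted p = 0.000456), atypical E2Fs that repress, and *E2f2* (1.01, adjusted p = 1.46e-05), an activator, changed most. *E2f8* had 241 ± 9.01 normalized counts in Empty, 728 ± 30.4 in SAM1 and 477 ± 21.2 in SAM2.

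Of 7 genes for kinases and phosphatases that switch CDKs on or off, *Cdc25a* aside, 3 rose and 4 fell (median −0.27), beside 26.8% and 27% of all genes. The 3 that rose were *Cdc25c* (log2 1.74, adjusted p = 1.14e-07), *Cdc25b* (1.01, adjusted p = 1.66e-06) and *Pkmyt1* (0.83, adjusted p = 4.12e-07), a kinase that inhibits CDK1. The 4 that fell were *Wee1* (−0.74, adjusted p = 0.00407), likewise the gene of an inhibitory kinase, *Mnat1* (−0.36), *Ccnh* (−0.30) and *Cdk7* (−0.27). Among 13 genes of the turnover of G1 cyclins and p27, 7 rose and 2 fell (median 0.16), beside the same 26.8% and 27%. These counts changed when single libraries were left out. So did the calls over the whole table, from 8179 of 15184 genes to between 6761 and 8133. Without Empty replicate 1, 4 rose and 0 fell in limma (2 fell at an unadjusted p under 0.05), and without Empty replicate 3, 5 rose and 0 fell (1 unadjusted). Without Empty replicate 2, 5 rose and 1 fell, and without any 1 library of SAM2, 5 rose and 3 or 4 fell. The rises with all 9 libraries were led by *Cks2* (0.73, adjusted p = 1.71e-05), *Skp2* (0.62, adjusted p = 7.75e-06) and *Cks1b* (0.40, adjusted p = 0.00199). Of these, the products of *Skp2* and *Cks1b* take part in the marking of p27 for degradation.

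Most E2F-driven genes of the G1 to S transition rose. Across both lines 18 of 22 rose and 4 did not pass (median 0.64), beside 26.8% of all genes higher. The lowest log2 fold change of the 22 was 0.042 there and 0.0068 in SAM1, so 0 fell in limma, also at an unadjusted p under 0.05, and 0 fell in edgeR and DESeq2. In SAM1 21 rose (median 0.70), beside 37.3% of all genes, and in SAM2 19 rose and 1 fell (median 0.53), beside 35.2% and 35.3%. *Ccna2*, the S-phase cyclin that follows cyclin E on CDK2, rose from 1894 ± 76.3 normalized counts in Empty to 5189 ± 54.6 in SAM1 and 5040.2 ± 19.5 in SAM2 (log2 1.43, adjusted p = 8.1e-09). *Rrm2*, a subunit of ribonucleotide reductase, rose by log2 1.39 (adjusted p = 0.000112), and the replication factor gene *Mcm10* by log2 1.33 (adjusted p = 6.48e-06). Between the lines 15 of the 22 were lower in SAM2 than in SAM1 and 2 were higher, beside 29.2% of all genes lower and 31.1% higher. Without SAM1 replicate 1 or 3, or SAM2 replicate 2 or 3, 1 was higher. Calls over the whole table between the lines went from 9162 genes to between 8235 and 9492 with any 1 library left out. *Ccne1*, *Ccne2* and *Cdc25a*, themselves known E2F targets, were lower in SAM2 than in SAM1 too.

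**Figure D5:**
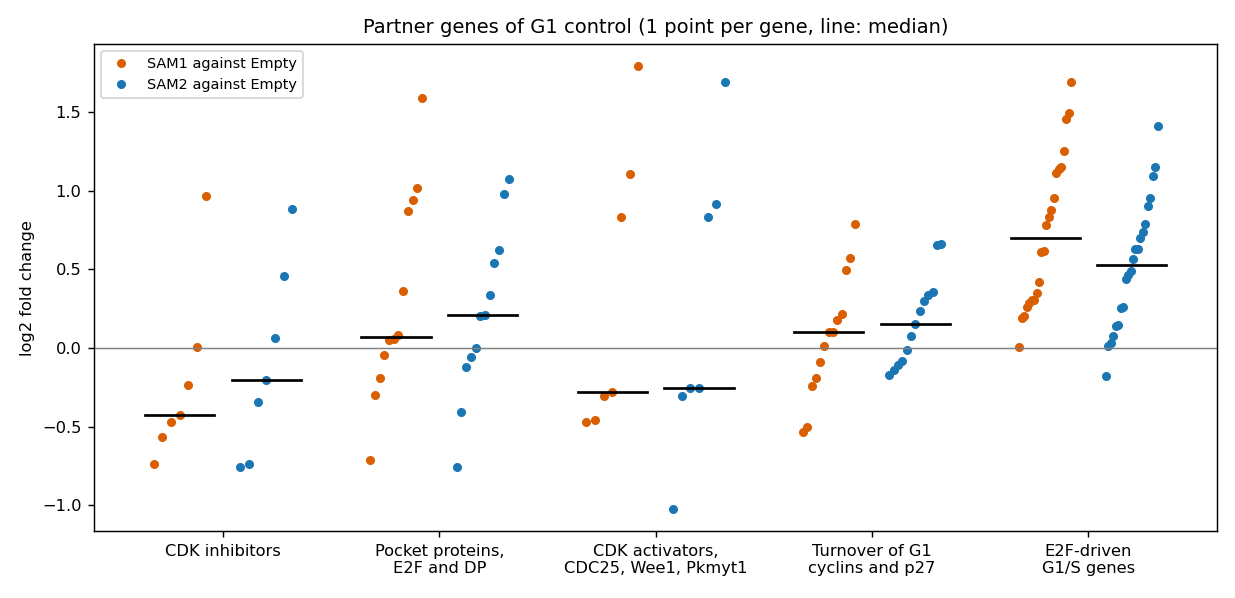
Log2 fold change against Empty (y axis) of each gene in 5 lists of G1 control genes (x axis) in SAM1 and SAM2, with the median as a line. The E2F-driven genes have medians of 0.70 and 0.53, and the CDK inhibitors of −0.42 and −0.20.

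For the 3 genes that passed the test with a change of at least 0.5 on the log2 scale across both lines, the listed genes with the nearest profile over the 9 libraries were sought, by the root mean square distance of log2 values centered on Empty. They were *Lrrn4cl* (distance 0.074) and *Artn* (0.091) for *Cdk6*, *Spry2* (0.052) and *Tmem45a* (0.064) for *Ccne2*, and *Trps1* (0.057) and *Dnmt3b* (0.058) for *Rb1*. *Lrrn4cl* had log2 fold changes of −2.23 in SAM1 and −1.49 in SAM2, beside −2.31 and −1.48 for *Cdk6*. None of the 6 lies on the chromosome of the gene it resembles. With 3 groups of tightly grouped libraries, a small distance says little beyond a like pair of fold changes.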

How the data were processed

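RNA-Seq of polyA+ RNA was performed on 9 libraries, grouped by their titles (Empty, SAM1 and SAM2, 3 each). Per the labels and the study's methods, reads in pairs of 43 bases from a directional kit were checked with FastQC 0.11.0, aligned to GRCm39 with TopHat2 (3 mismatches, 20 multihits), counted with HTSeq on GENCODE vM29 and divided by DESeq2 size factors. The deposited values are therefore a signal, normalized counts, after a filter that asked for values above 10 in 30% of libraries, which all 15184 genes met. Whether reads were counted by strand is not given in the sources used here. The authors' processing could affect levels through reads of overlapping genes or copies.

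Values were whole multiples of 1 read's worth in all 9 libraries (100% within 0.1 of a whole read), although 1 library, SAM2 replicate 1, has a step so near 1 that the planned count tests used 8. Libraries of one label differed by more than counting noise (chi-square per gene from 1.45 to 13.2) and were counted separately.

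The main test was limma 3.58.1 with a trend (R 4.3.3) on log2(value + 1), two-sided, with Benjamini-Hochberg adjustment over all 15184 genes and a threshold of 0.05. Fold changes on this scale slightly understate the change of low genes. SAM1 and SAM2 were fitted as 1 group against Empty, as in the study's methods, and as separate groups. The 4 ratios were tested by exact permutation. On simulated counts of Hnrnpk SAM against Empty (14900 genes tested, dispersion 0.02), limma recovered 93 of 100 genes changed by 1 and 97 of 97 changed by 2 on the log2 scale, and called 9 unchanged ones. The simulation gave both lines the same change in each of 200 genes. In these data the lines differed and far more genes were called, so that recovery need not hold here. Coordinates, lengths and promoters came from GENCODE vM39 on GRCm39. There 14791 of the listed names had 1 entry, 68 had several and 325 had none.

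The members and gene lists were chosen with earlier results of these data known. Genes named are the members, *Hnrnpk*, and the 3 genes past the threshold with the largest change in each list. Also named are the 2 with the nearest profile to each member that changed by 0.5 or more, and cell type markers. Genes overlapping a member, and those that fell among the kinases and phosphatases that switch CDKs, were named after their values were seen. Alternatives were pseudocounts of 0.1 and 10, genes above 10 in every library, quantile and upper-quartile scaling, the replicate number as a block, leaving out each library, the mean of the lines, edgeR 4.0.16 and DESeq2 1.42.0 on recovered reads of 8 libraries and, added after seeing the data, of 9, the median of neighboring genes, and the exon-union length.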

Additional observations from a re-analysis of the deposited data

Results flagged for a closer look

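The effects of SAM1 and SAM2 against the same Empty libraries differed for 9 of the 10 genes, by a contrast of the lines in the limma fit (adjusted p below 0.05 over all genes). As log2 differences of SAM2 minus SAM1, they were 0.94 for *Ccnd2*, 0.83 for *Cdk6*, 0.50 for *Ccnd1*, 0.35 for *Rb1*, 0.14 for *Cdk2*, −0.23 for *Ccne1*, −0.24 for *Cdc25a*, −0.29 for *Ccnd3* and −0.57 for *Ccne2*. The *Cdk2* difference did not pass under quantile normalization (adjusted p = 0.11), upper-quartile scaling (adjusted p = 0.0752), or edgeR (adjusted p = 0.0535) and DESeq2 (adjusted p = 0.0821) on 8 libraries. Of all genes, 60.3% passed the same contrast. Guide, line and label cannot be told apart in this design.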

How the results depend on the processing

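For 26 of 40 member results (10 genes in 4 comparisons), no alternative changed the direction or the side of the threshold. Leaving out each library gave 4 to 7 members called across both lines (4 without Empty replicate 1), 8 to 9 in SAM1, 7 to 8 in SAM2 and 9 to 10 between the lines. Genes called in the table then ranged from 6761 to 8133, 10734 to 11150, 10014 to 10893 and 8235 to 9492. The ratios ranged from 0.51 to 0.61 (*Ccnd2* to *Ccnd1*), 0.72 to 0.89 (*Ccnd3* to *Ccnd1*, adjusted p up to 0.107), 0.44 to 0.54 (*Ccne2* to *Ccne1*) and −1.95 to −1.77 (*Cdk6* to *Cdk4*). Fewer libraries allow fewer splits.

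Same-numbered libraries were not shown to be pairs. Their deviations from the group means correlated with r from 0.00237 to 0.117 (9 pairs, mean 0.0531), against −0.0265 for different numbers, and 8 of 9 libraries matched best with their own number, a hint from the data only. With the replicate block, *Ccne1* (adjusted p = 0.0518) and *Cdk2* (adjusted p = 0.0641) were no longer called across both lines. *Cdk4* then passed in SAM1 (adjusted p = 0.0409) and between the lines (adjusted p = 0.0223). Under the block the ratio differences of 0.56, 0.81, 0.49 and −1.87 each had an adjusted p of 0.0741 (27 splits).

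Directions turned mostly near 0. *Cdk4* went to 0.15 (adjusted p = 0.0136) under quantile normalization, 0.0072 under upper-quartile scaling and from −0.058 to 0.012 with single libraries left out across both lines, to 0.13 in SAM1 under quantile normalization, and from −0.022 to 0.048 in SAM2 with single libraries left out. *Cdc25a* in SAM2 gave 0.0053 (upper-quartile), from −0.0032 to 0.0058 with single libraries left out, 0.0044 (edgeR, 8 libraries), 0.0068 (DESeq2, 8 libraries) and 3.53e-05 (DESeq2, 9 libraries). *Ccnd2* across both lines ranged from −0.025 to 0.17 with single libraries left out, negative without any 1 library of SAM2. As the mean of the lines it was 0.074 with an adjusted p of 0.0318 (limma), and *Cdc25a* passed as well (adjusted p = 0.00195). That fit leaves the difference between the lines out of the error (SE of *Ccnd2* 0.028 instead of 0.27). Minus the neighbors, *Rb1* was at −0.31, *Ccnd1* at −0.18, *Ccnd3* at 0.15 and *Ccne1* at 0.47. The cause was not tested. The lowest value of the 10 genes was 499 normalized counts.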
